A study of Mus musculus with 10 samples.

Results

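The Hox cluster genes were described in Wnt9b mutant and wild-type kidney mesenchyme. Members were the genes whose symbol is Hox followed by a, b, c or d and a number from 1 to 13, wherever the array annotation gave a probe set to that gene alone. Of the 39 mouse Hox genes in the RefSeq table, 38 were listed for the description and 33 could be measured in this way, among 18193 genes measured in all. Hoxa6, Hoxb8, Hoxc11, Hoxc12 and Hoxd4 have no such probe set in the annotation used and were not analysed here, nor was the gene not listed. The 33 members are 9 of cluster A, 9 of cluster B, 7 of cluster C and 8 of cluster D. The rule takes genes by name and uses no signal, but the family was picked for description with earlier results of these data known.

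The tissue was metanephric mesenchyme, the embryonic tissue that forms the nephrons and stroma of the kidney, taken at E11.5 and separated from the ureteric bud by enzyme digestion. There were 5 arrays of Wnt9b-/- mesenchyme and 5 of Wnt9b+/+ littermate mesenchyme by the sample labels, while the series' design text gives the controls as Wnt9b+/-. The sample labels were followed, and strain, sex and the allele's construction are not given in the sources used here. Each array carried labelled cRNA from its own pool of 25 to 30 mesenchymes, so the spread between arrays covers pools and not single embryos. Replicate numbers only name arrays. The probe set of Wnt9b itself did not separate the genotypes, with signals of 78.2 to 99.7 in wild type and 41.8 to 106 in the mutant (log2 difference -0.24, 95% interval -0.77 to 0.29, limma adjusted p = 0.996). Its place relative to the mutated part of the gene is unknown here, so it does not check the labels, and the genotypes are those of the labels throughout.

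Hox genes encode homeodomain transcription factors and lie in 4 clusters, on mouse chromosomes 6 (A), 11 (B), 15 (C) and 2 (D). Genes with the same number in different clusters are paralogues, and in general low numbers are switched on towards the head and high numbers towards the tail. In the kidney, the genes of paralogue group 11 act redundantly in the metanephric mesenchyme, where their loss stops kidney formation, and they work with Eya1 and Pax2 to switch on Six2 and Gdnf. Wnt9b is the Wnt ligand by which the ureteric bud induces this mesenchyme. The comparison of the genotypes asks whether Hox transcripts depended on it.

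No Hox gene differed detectably between the genotypes. Of the 33 members 0 passed an adjusted p of 0.05 in limma, where 0.00550% of all genes did, and 1, Hoxb1, had an unadjusted p under 0.05, against 5.49% of all genes. No member had groups that did not overlap, which 1.21% of all genes had. Differences are mutant minus wild type of log2(signal + 1), for which 1 is a 2-fold change, and adding 1 understates changes of dim genes. Such values are called log2 signals. They ran from -0.53 for Hoxb1 to +0.58 for Hoxa4, with a median of +0.07 over the members and +0.02 over all genes. The median size of a difference, whatever its direction, was 0.15 over the members and 0.15 over all genes. The median SD between arrays of a group was 0.34 over the members and 0.33 over all genes.

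The intervals show which sizes of difference the arrays left possible for a single gene, not what could be called over all genes. For 27 of the 33 members the 95% confidence interval of the difference, not corrected for the number of genes, lay within a 2-fold change either way, as it did for 69.4% of all genes. For 15 it lay within a 1.5-fold change, as for 45.2% of all genes. The 6 whose intervals reached beyond 2-fold were Hoxb1 and 5 members dimmer than the median gene, Hoxa4, Hoxa7, Hoxb7, Hoxb13 and Hoxc13. The interval of Hoxb1, -1.02 to -0.04, was shifted below 0 rather than wide. It was narrower than that of Hoxb9, -0.58 to 0.92, which lay within 2-fold. Among the 25 members brighter than the median gene, 24 had intervals within 2-fold and 15 within 1.5-fold, against 97.8% and 78.8% of all genes that bright.

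**Figure D1:**
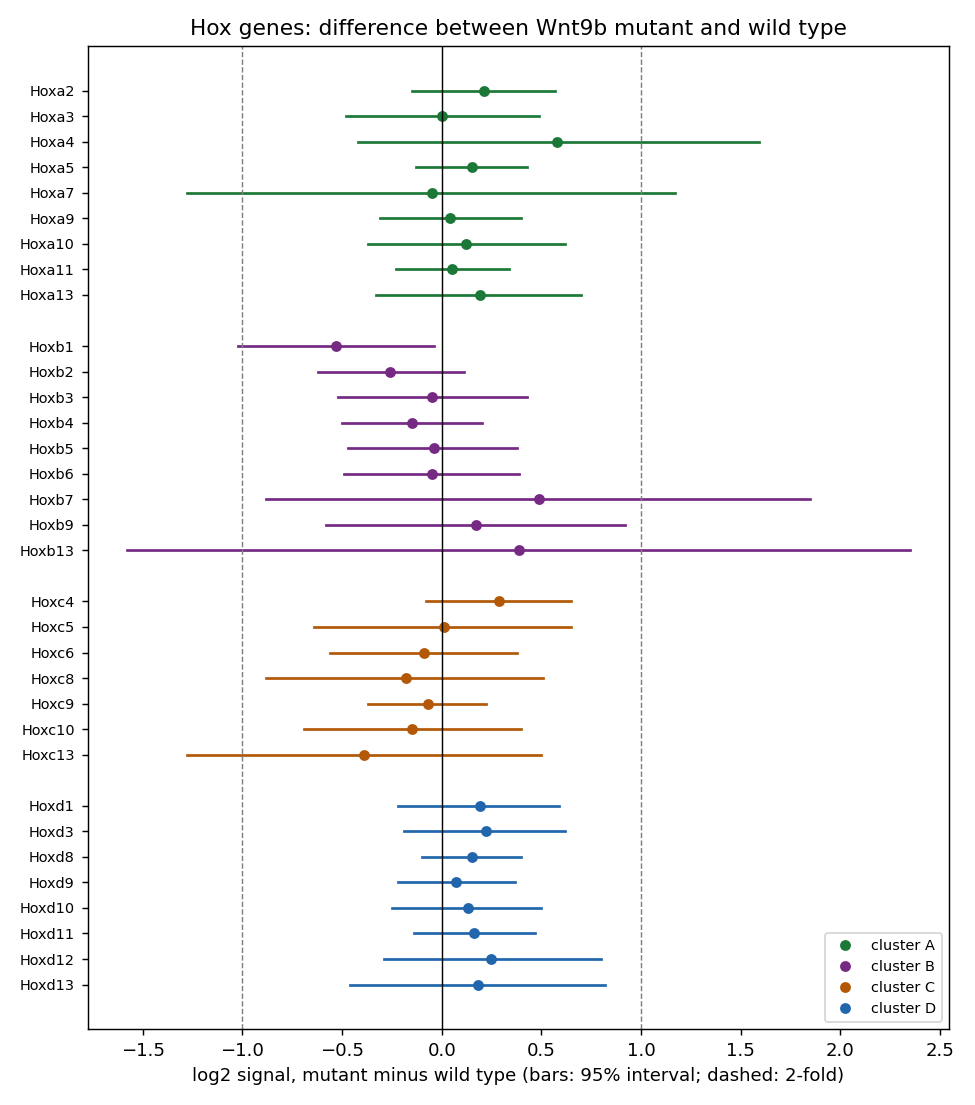
Difference in log2 signal between mutant and wild type for each of the 33 members, grouped by cluster; points are differences, bars are 95% confidence intervals from limma (5 arrays a group), and dashed lines mark a 2-fold change. Every interval but that of Hoxb1 includes 0, and the widest belong to dim probe sets such as Hoxb13 and Hoxb7.

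Paralogue group 11 was measured by Hoxa11 and Hoxd11. The promoter sequences of both are shown because this is the group known to be needed in the mesenchyme, and because Wnt signals of the canonical kind act through TCF/LEF factors that bind short DNA motifs. They are the 250 bases before the start, from RefSeq on GRCm38.p6, 5′ to 3′ along the gene (chr6:52245811-52246060, minus strand for Hoxa11, and chr2:74682073-74682322, plus strand for the second of 2 listed starts of Hoxd11). Capitals in Hoxd11 mark a match to TGATTNAT, a motif bound jointly by Pbx and Hox proteins, here on the opposite strand.
Hoxa11: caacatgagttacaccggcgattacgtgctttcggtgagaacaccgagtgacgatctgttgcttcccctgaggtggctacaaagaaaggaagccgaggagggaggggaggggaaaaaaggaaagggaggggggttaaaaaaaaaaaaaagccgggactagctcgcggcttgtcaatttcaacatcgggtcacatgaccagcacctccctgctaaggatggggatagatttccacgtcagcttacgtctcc
Hoxd11: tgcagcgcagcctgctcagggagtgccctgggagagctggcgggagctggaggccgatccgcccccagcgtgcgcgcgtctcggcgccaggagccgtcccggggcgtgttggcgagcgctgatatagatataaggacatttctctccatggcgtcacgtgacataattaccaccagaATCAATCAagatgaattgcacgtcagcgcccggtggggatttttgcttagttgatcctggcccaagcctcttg

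The 24 Hox promoters in the RefSeq table, of 22 genes and 300 bases each (250 before and 50 after the start), were searched on both strands for the TCF/LEF letters CTTTGAA and CTTTGAT and for TGATTNAT, motifs that do not overlap one another here. A TCF/LEF match lay in 3 of the 24, Hoxa11, Hoxd8 and Hoxd12 (12.5%), and in 8.65% of all 32851 promoters. TGATTNAT lay in 2, Hoxd11 and Hoxa2 (8.3%), and in 3.22% of all. The windows of 30 bases that hold the TCF/LEF matches are shown because the mutation is in a Wnt gene. Capitals mark 1 match in each window, and since the matches of Hoxd8 lie close together, each of its windows also holds the other match in lower case.
Hoxa11, chr6:52245770-52245799, minus strand: tcacggatccgcTTCAAAGaggcagctgca
Hoxd12, chr2:74674967-74674996, plus strand: tgaaatgaccggCTTTGAAgaacctgcagg
Hoxd8 first match, chr2:74704450-74704479, plus strand: gaaaaagcaggaCTTTGATtcgctttgata
Hoxd8 second match, chr2:74704460-74704489, plus strand: gactttgattcgCTTTGATaaggtcaggat
The Hoxa11 match began 23 bases after the start and reads on the opposite strand, that of Hoxd12 began 34 bases before it, and Hoxd8 had matches from 153 and from 143 bases before it. A match is only a run of letters, and it says nothing of binding. Of the 24 promoters 10 belong to cluster A, 10 to D, 3 to B and 1 to C, so these shares and the next counts describe mainly A and D. CpG dinucleotides numbered 4 to 45 in the Hox promoters, with a median of 14.5, against a median of 7 over all promoters.

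Hoxa11 had signals of 817, 808, 858, 777 and 692 in wild-type replicates 1 to 5, and of 801, 971, 803, 657 and 896 in mutant replicates 1 to 5. The mutant values spanned the whole wild-type range, with the lowest and the highest array of all both among them. On the log2 scale the wild-type mean was 9.62 ± 0.12 and the mutant mean 9.68 ± 0.21 (SD, n = 5 each), a difference of +0.05 (95% interval -0.23 to 0.34). That interval covers folds of 0.85 to 1.26 (limma adjusted p = 0.999).

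Hoxd11 had signals of 577, 524, 489, 465 and 518 in the wild-type arrays and of 465, 735, 559, 535 and 612 in the mutant ones. Mutant replicate 2 was the highest of the 10 arrays and mutant replicate 1 as low as the lowest wild-type array, so the groups overlapped. The log2 difference was +0.16 (95% interval -0.14 to 0.47), covering folds of 0.91 to 1.38 (limma adjusted p = 0.988). Hoxa11os, the antisense transcript at Hoxa11, had a log2 difference of -0.09 (95% interval -0.32 to 0.14).

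**Figure D2:**
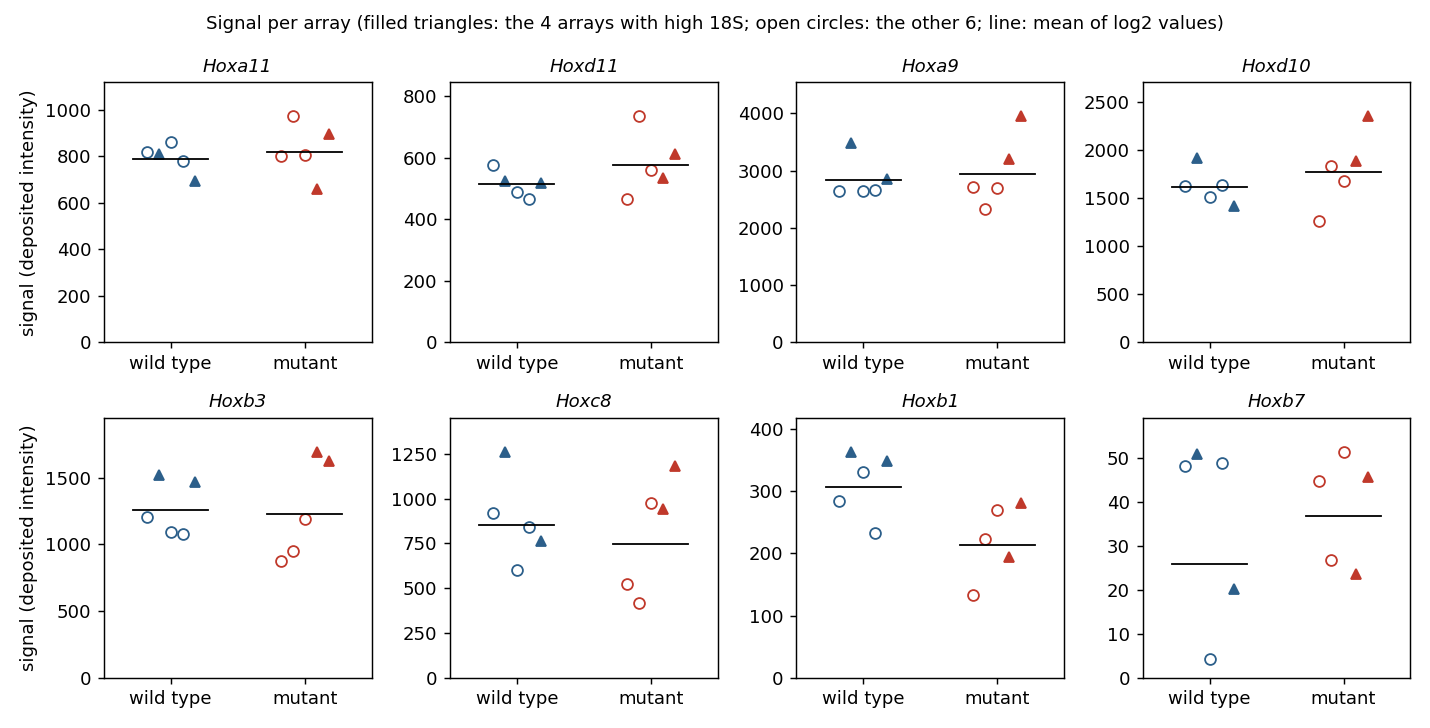
Deposited signal of 8 Hox genes in each array, on axes from 0, with wild type in blue and mutant in red; black lines are the means of the log2 values turned back to signals, filled triangles are the 4 arrays with a high 18S control signal and open circles the other 6. The genotypes overlap for every gene shown, and for Hoxb3 and Hoxa9 the triangles lie above all circles.

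Beside the Hox genes of group 11, genes that this group is known to act with or on had lower means in the mutant arrays. Eya1, the partner of these Hox proteins, had a log2 mean of 10.93 ± 0.20 for wild-type arrays and 10.20 ± 0.40 for mutant ones (SD, n = 5 each). Six2, a regulator of progenitor renewal, had means of 10.45 ± 0.27 and 9.79 ± 0.44. Gdnf, the ligand that attracts the ureteric bud, had means of 8.43 ± 0.24 and 7.31 ± 0.49. None of these 3 passed limma's adjustment over all genes (adjusted p = 0.552, 0.785 and 0.403), and they were examined with their lower values already known. All 3 also belong to the list of 10 nephron progenitor markers described further on, of which 10 were lower in the mutant. Lower values were thus not particular to genes known to act with group 11. The differences in that list ran from -1.28 for Uncx to -0.04 for Osr1. Pax2 was not analysed here.

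Within arrays, as differences of log2 signals, Eya1 relative to Hoxa11 had a wild-type mean of 1.30 ± 0.26 and a mutant mean of 0.52 ± 0.41 (SD, n = 5 each), a difference of -0.79. Relative to Hoxd11 the differences were -0.89 for Eya1, -0.82 for Six2 and -1.29 for Gdnf, and relative to Hoxa11 they were -0.71 for Six2 and -1.18 for Gdnf. The groups overlapped for Six2 relative to Hoxa11 and not for the other 5. Eya1 and Gdnf already had groups that did not overlap on their own, which 1.21% of all genes had, so for them this was largely set beforehand. Six2 on its own overlapped. Because these genes were taken for their lower values, and the 6 comparisons reuse the same genes and arrays, they are a description with no test. All 6 were negative both among the 4 arrays with a high 18S control signal, described further on, and among the remaining 6. Since the tissue was measured in bulk, fewer cells of a type and less RNA per cell cannot be told apart.

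**Figure D3:**
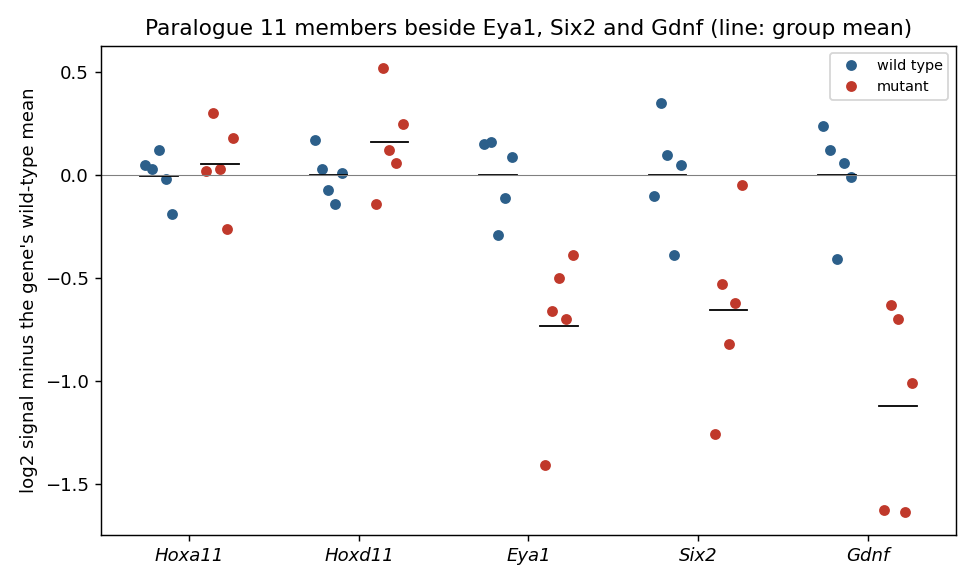
Log2 signal of Hoxa11, Hoxd11, Eya1, Six2 and Gdnf in each array, minus the gene's mean over the 5 wild-type arrays, with wild type in blue, mutant in red and black lines for group means. The mutant means lie at +0.05 and +0.16 for the Hox genes and at -0.73, -0.66 and -1.12 for the other genes.

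The other members with high numbers, in groups 9, 10, 12 and 13, showed no detectable difference either. Hoxa9, whose probe set was the brightest of cluster A, had signals of 2636, 3480, 2642, 2652 and 2858 in wild type and of 2715, 2322, 2693, 3197 and 3949 in the mutant. Its highest and its lowest array were both mutant, and the log2 difference was +0.04 (95% interval -0.31 to 0.40). Hoxd10, the brightest of cluster D and a gene known for its role in kidney stroma, had 1632, 1917, 1511, 1641 and 1420 in wild type and 1261, 1834, 1676, 1887 and 2355 in the mutant. Its difference was +0.13 (95% interval -0.25 to 0.50), again with overlap on both sides. Hoxa10 and Hoxc10, its paralogues, differed by +0.12 and -0.15, and Hoxb9, Hoxc9 and Hoxd9 by +0.17, -0.07 and +0.07.

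Group 13 holds genes known from the tail end of the body, the distal limb and the external genitalia. Hoxd13 differed by +0.18 (95% interval -0.46 to 0.82), Hoxa13 by +0.19 and Hoxd12, of the neighbouring group, by +0.25. Hoxb13 and Hoxc13 were among the dimmest members. Hoxb13 had signals of 1.08 to 9.24 in 9 arrays and 63.9 in mutant replicate 1, and Hoxc13 had 2.02 to 12.2 in all 10. The table deposited has no detection calls, so whether such signals lie above background is not known, and no fold is given for them.

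Among the members of groups 5 to 8, which are known for patterning the neck and thorax, 4 of 9 were higher and 5 lower in the mutant, with differences from -0.18 to +0.49. Hoxc8, whose probe set was the brightest of cluster C, had signals of 921, 1263, 600, 840 and 766 in wild type and of 522, 417, 974, 942 and 1182 in the mutant. Mutant replicates 1 and 2 were the lowest arrays, while the other 3 mutant arrays exceeded 4 of the 5 wild-type ones. The log2 difference was -0.18 (95% interval -0.88 to 0.51). Hoxa5, known for its role in lung development, differed by +0.15 (95% interval -0.13 to 0.43), Hoxb5 by -0.04, Hoxb6 by -0.05, Hoxc5 by +0.01 and Hoxc6 by -0.09. Hoxd8, whose promoter carries a TCF/LEF match, had 448, 447, 387, 501 and 413 in wild type and 481, 499, 526, 420 and 511 in the mutant. Its difference was +0.15 (95% interval -0.10 to 0.40), with overlapping groups.

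Hoxb7 is known from the Wolffian duct and ureteric bud, the epithelium that the dissection was meant to remove. It was dim, with signals of 48.3, 50.9, 4.24, 48.9 and 20.1 in wild type and of 44.8, 26.8, 51.5, 23.6 and 45.7 in the mutant. The groups overlapped and wild-type replicate 3 was lowest. The difference of +0.49 (95% interval -0.88 to 1.85) turned to -0.10 without that array. The ureteric bud list, which includes Wnt9b, had a mean log2 signal over its 11 measured markers of 7.07 to 7.99 in wild type and 6.84 to 8.22 in the mutant, and 5 of the 11 higher in the mutant. Krt18 signals were 267 to 902 and Epcam signals 118 to 659 over the 10 arrays. How completely the bud was removed from each pool was not tested.

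The members of groups 1 to 4, known from the hindbrain and neck, included the gene with the smallest p. Hoxb1, a hindbrain gene, had signals of 285, 364, 330, 234 and 348 in wild type and of 133, 224, 270, 194 and 282 in the mutant. Wild-type replicate 4 lay within the mutant range and the other 4 wild-type arrays above it. Its log2 means were 8.27 ± 0.26 and 7.74 ± 0.44 (SD, n = 5 each), a difference of -0.53 (SE 0.22, 95% interval -1.02 to -0.04, limma unadjusted p = 0.0362, adjusted p = 0.880). It was thus not called over all genes. Its difference was negative under all 22 other settings, from -0.63 to -0.36. These settings reuse the same arrays, and 9 of the 33 members, Hoxb1 among them, kept their sign under all of them.

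Hoxb2, next to Hoxb1 in the cluster, had signals of 625, 721, 561, 675 and 554 in wild type and of 431, 688, 542, 410 and 590 in the mutant, a log2 difference of -0.26 (95% interval -0.62 to 0.11). The 3 lowest arrays were mutant replicates 1, 3 and 4. Hoxc4 had 667, 680, 479, 824 and 499 against 699, 816, 672, 800 and 788, a difference of +0.29 (95% interval -0.08 to 0.65). The mutant arrays of Hoxc4 lay close together, with an SD of 0.13 against 0.33 in wild type, and within the wild-type range. Hoxa2, a gene of the pharyngeal arches, had 234, 270, 252, 172 and 256 against 245, 235, 246, 343 and 294, a difference of +0.21 (95% interval -0.15 to 0.57). Hoxa4, a dim probe set, had 50.3, 59.5, 62.9, 12.9 and 42.0 against 38.8, 57.9, 45.5, 66.3 and 122. Its difference of +0.58 (95% interval -0.42 to 1.59) fell to +0.19 without wild-type replicate 4, the array at 12.9.

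The remaining members of groups 1 to 4 lay between -0.15 for Hoxb4 and +0.22 for Hoxd3. Hoxb3, the brightest probe set of cluster B, had signals of 1206, 1521, 1095, 1076 and 1470 in wild type and of 872, 950, 1190, 1696 and 1625 in the mutant. Mutant arrays took both the highest and the lowest places, and the log2 difference was -0.05 (95% interval -0.52 to 0.43). Hoxa3 differed by 0.00 and Hoxd1 by +0.19.

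The counts by cluster were as follows. In cluster D all 8 members were higher in the mutant, by +0.07 to +0.25 (median +0.17), and in cluster A 8 of 9 were (median +0.12, Hoxa7 at -0.05). In cluster B 3 of 9 were higher (median -0.05) and in cluster C 2 of 7 (median -0.09). Of all genes 54.9% were higher, and of the 33 members 21 (63.6%). Neighbouring genes and the same 10 arrays are not independent, so these counts are given without a test. Median centring left 7, 3, 1 and 8 members of clusters A to D higher, with 2 members changing sign. In the 4 high-18S arrays alone, 8 of 9 were higher in A, 4 of 9 in B, 5 of 7 in C and 5 of 8 in D, and the medians of C and D were both +0.07. In the 6 low-18S arrays alone, 5 of 9 were higher in A (median +0.07), 3 of 9 in B, 3 of 7 in C and 7 of 8 in D. With each array left out in turn, the median of cluster A was lowest without mutant replicate 5, at +0.06, and highest without mutant replicate 1, at +0.18, and that of B went from -0.15 (without mutant replicate 5) to +0.02 (without wild-type replicate 2), being also above 0 without mutant replicate 1. The median of C ranged from -0.18 (without wild-type replicate 3) to -0.02 (without mutant replicate 2), and that of D from +0.11 (without wild-type replicate 3) to +0.22 (without mutant replicate 1). By paralogue number, 6 of 10 members of groups 1 to 4 and 11 of 14 of groups 9 to 13 were higher.

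Of the 33 members 11 had more than 1 probe set. Of their 15 further probe sets 10 gave a difference of the same sign as the brightest one. Those 10 include the further probe sets of Hoxa3, at +0.19, +0.17 and +0.49. The brightest one of Hoxa3 differed by 0.00, so its sign means little. The exceptions belonged to Hoxc5, Hoxc6 and Hoxd13, with -0.36 and -0.01 against +0.01 for Hoxc5, +0.10 and +0.51 against -0.09 for Hoxc6, and -0.25 against +0.18 for Hoxd13. One further probe set, of Hoxd8, had an unadjusted p under 0.05 (difference +0.37, limma unadjusted p = 0.00778, adjusted over probe sets 0.879). Its name ends in _s_at, a suffix the manufacturer uses for probe sets that can match several transcripts. The brightest probe set of Hoxc6 ends in _x_at, used for possible cross-hybridisation, so its source is uncertain.

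Arrays also differed in their 18S control signal, and Hox signals were set against it. The probe set for the 5′ part of 18S ribosomal RNA read 1975 to 2587 on 4 arrays (wild-type replicates 2 and 5, mutant replicates 4 and 5) and 92.4 to 322 on the other 6, so both sets held the genotypes in equal numbers. In a limma fit with genotype and 18S set, 8 members had an unadjusted p under 0.05 for the set, all higher in the high-18S arrays, where 6.06% of all genes were, and 0 were lower, where 8.03% of all genes were. All 8 are brighter than the median gene, and of all genes that bright 8.84% had such a p and were higher. After adjustment 0 members and 0.00550% of all genes passed, so no single member is called. The 8 were Hoxa2, Hoxa3, Hoxa9, Hoxa10, Hoxb3, Hoxb5, Hoxc5 and Hoxc10. The count was 5 with the mean of each gene's probe sets (4.86% of all genes) and 5 without wild-type replicate 2 (4.73%). Without wild-type replicate 2, 2 members were lower at such a p, and under the other settings 0 or 1 were. Neighbouring genes and the same arrays are not independent, so the counts by 18S set are given without a test.

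For 5 members every high-18S array lay above every other array, where 2.29% of all genes did so, 2.57% did the opposite and 4.85% did either. Among genes brighter than the median gene, as all 5 are, 3.84% did so. Hoxb3 read 1470 to 1696 in the high-18S arrays and 872 to 1206 in the others, a difference of +0.57 (SE 0.12, limma adjusted p = 0.170). Hoxc10 read 918 to 1007 and 438 to 850 (+0.58, SE 0.17), and Hoxb5 575 to 743 and 424 to 539 (+0.48, SE 0.12). Hoxa9 differed by +0.36 and Hoxa2 by +0.34. For group 11 the differences by set were -0.14 for Hoxa11 (SE 0.12) and +0.01 for Hoxd11 (SE 0.14), and Hoxd8 and Hoxd9 had -0.08 and -0.10. Hoxb9 had a difference of -0.65 (SE 0.29). Over the 33 members the median difference by set was +0.13, against -0.05 over all genes, and 69.7% of the members and 44.3% of all genes were higher in the high-18S arrays. For 20 members the difference by set exceeded that by genotype in size, which is 60.6% of them and close to the 59.9% of all genes.

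**Figure D4:**
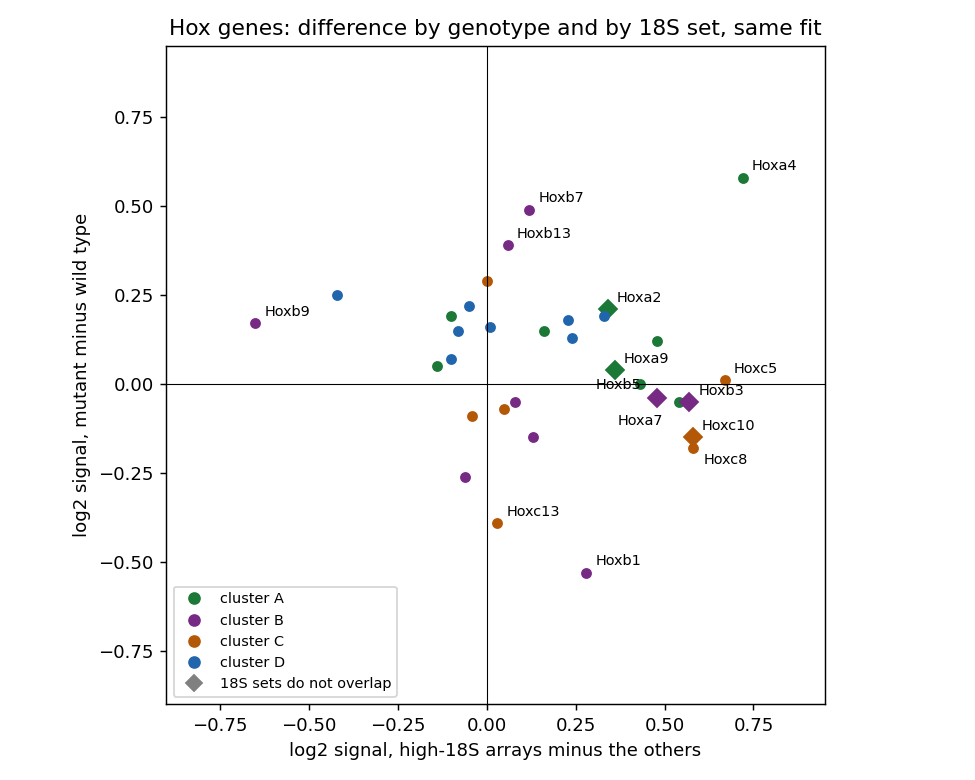
Differences in log2 signal of the 33 members from 1 limma fit, by 18S set on the horizontal axis (4 high-18S arrays minus the other 6) and by genotype on the vertical axis (mutant minus wild type), coloured by cluster; diamonds are the 5 members whose 18S sets do not overlap. The diamonds lie at +0.34 to +0.58 horizontally and at -0.15 to +0.21 vertically.

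Values of cell type markers by 18S set are given beside these, and their part in the Hox values was not tested. In the high-18S arrays 8 of 10 nephron progenitor markers were higher (3 at an unadjusted p under 0.05) and 7 of 7 renal stroma markers (4 at such a p), where 44.3% of all genes were higher. The mean log2 signals of the stroma list were 11.06 to 11.35 against 10.83 to 11.14, and those of the progenitor list 8.68 to 9.55 against 8.15 to 9.48. Of the ureteric bud markers 2 of 11 were higher there, of the erythroid markers 0 of 5 and of the cloaca and hindgut markers 1 of 5, and in each of these lists 1 marker was lower at such a p. Endothelial markers were higher in 1 of 6 (1 lower at such a p) and macrophage markers in 4 of 7 (1 higher at such a p). Neuron and neural crest markers were higher in 2 of 5, and somite and limb markers in 2 of 8. Erythroid means were 10.59 to 10.63 against 10.56 to 11.38, and those of the cloaca and hindgut list 3.77 to 5.11 against 4.37 to 5.73. The genes of this last list ranged from Cdx1, with signals of 1.58 to 4.44 over all 10 arrays, to Sox17, with 92.2 to 248. Between genotypes, 10 of 10 progenitor markers, Eya1, Six2 and Gdnf among them, were lower in the mutant. Of these 8 had an unadjusted p under 0.05, where 2.08% of all genes were lower at such a p. List means were 9.33 to 9.55 in wild type and 8.15 to 9.07 in the mutant. Higher in the mutant were 6 of 7 stroma, 7 of 7 macrophage and 6 of 6 endothelial markers, as were 54.9% of all genes. So were 3 of 5 erythroid, 3 of 5 neuron and neural crest, 2 of 5 cloaca and hindgut and 4 of 8 somite and limb markers. None of the marker genes was called over all genes.

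Cofactors and regulators of Hox genes were measured by 41 of 47 listed genes, of which 0 were called by limma over all genes, 1 was higher and 3 were lower at an unadjusted p under 0.05, against 3.41% and 2.08% of all genes. Their median difference was +0.02. The TALE cofactors, homeodomain proteins that bind DNA together with Hox proteins, were higher in the mutant in 8 of 8 measured genes (median +0.20), where 54.9% of all genes were higher, and 1 of the 8 had an unadjusted p under 0.05. Meis1 and Meis2 are also in the stroma list, of which 6 of 7 markers were higher. Pknox2 had the smallest p of these (difference +0.26, SE 0.11, limma unadjusted p = 0.0397), while Meis1 differed by +0.25 and Meis2 by +0.15.

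Of the Polycomb genes, which keep Hox clusters silent, 4 of 8 were higher and 4 lower, with Ezh2 at -0.11. Of the Trithorax genes, which keep them active, 2 of 5 were higher, with Kmt2a at -0.05 and Wdr5 at -0.26 (SE 0.10, limma unadjusted p = 0.0254). Geminin (Gmnn), a replication inhibitor that also binds Hox proteins, differed by -0.32 (SE 0.11, limma unadjusted p = 0.0128), and Eya1 by -0.73 (SE 0.20, limma unadjusted p = 0.00384). The caudal genes, which switch on Hox genes in the tail bud, were dim, with Cdx2 signals of 6.77 to 80.2. The genes that flank the clusters or lie within them differed by a median of +0.08 in 10 measured genes, with Evx1, beside Hoxa13, at -0.56 (95% interval -1.21 to 0.09) and Evx2, beside Hoxd13, at +0.10.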

How the data were processed

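RNA was hybridised to Affymetrix mouse arrays, 1 pool per array. The authors deposited linear intensities per probe set. Every array had a trimmed mean (2% of values removed from either tail) of 250.0, so scaling preceded deposit. The summarisation method and its software are not given in the sources used here. Array medians lay between 5.99 and 6.30 as log2(signal + 1), and no further normalization was applied. Of 45101 probe sets, 64 were controls; 34945 of the rest had 1 gene symbol in the platform annotation and 932 had several, and the brightest probe set by mean log2 value stood for a gene. Signals of different probe sets are not set against each other as transcript amounts. The number of arrays limits the precision.

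The genotype test used limma, version 3.58.1, under R version 4.3.3 (lmFit and eBayes, two-sided, Benjamini-Hochberg adjustment over all 18193 genes, called under 0.05). The test was checked on simulated data with known changes, all larger than any Hox difference here. That check does not cover differences of the size seen in the Hox genes. The members and lists were chosen with earlier results of these data known. The values of every array are given for paralogue group 11, Hoxb7, the brightest probe set of each cluster and the 6 members with the smallest p; Hoxb13 was added after its values were seen. The within-array values of Eya1, Six2 and Gdnf, given with no test, and the tests of the 18S term were chosen after the data were seen. The alternatives were another pseudocount, a filter on dim genes, 2 normalizations, other moderation, array weights, the mean of probe sets, 2 blocks, subsets of arrays and leaving out each array.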

Additional observations from a re-analysis of the deposited data

Results flagged for a closer look

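Arrays that stood apart from the other 4 of their genotype were looked for with Dixon's gap criterion, in the 33 members and 6 further genes named above, 78 groups in all. Chance marks about 1 in 20, or 3.90 here, and 5 were found. The log2 signal of Hoxb13 in mutant replicate 1 was 6.02, while its remaining mutant values were 1.06 to 1.80. Hoxa4 in wild-type replicate 4 was at 3.80, with its other wild-type values at 5.42 to 6.0. For Hoxb9, wild-type replicate 5 gave 7.65 and the rest of that genotype 8.04 to 8.19. Hoxd3 was at 8.0 in mutant replicate 2, with the rest at 7.59 to 7.70, and this array also had the brightest hybridisation controls. Pknox2 in mutant replicate 4 was at 7.98 and elsewhere in the mutant at 8.16 to 8.22.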

How the results depend on the processing

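No Hox member was called under any of the 22 other settings. The median difference over the members was lowest, at +0.01, when mutant replicate 2 and wild-type replicate 3 (brightest hybridisation controls) were left out together. It was highest, at +0.16, without wild-type replicate 2. These moves were smaller than 0.15, the SD within a genotype of each array's mean over the members. That SD is itself larger than the median difference of +0.07, so it is a loose measure. Over all genes the number called was 1, and it was 6 without the dimmest 40% of genes, 10 with an intensity trend and robust moderation, and 0 when probe sets of a gene were averaged, with the title wording as a replicate block, with the 18S set as a block, in the high-18S or the low-18S arrays alone, and when those 2 bright-control arrays were left out; leaving out each array in turn gave 0 to 2. The cause of these changes was not tested. Since no member was called in the main fit, the replicate block had no call to remove, and it added none. Of the 33 members 24 changed sign under at least 1 setting and 9 under none, most often within the high-18S arrays alone, where 13 did. The count of members with an unadjusted p under 0.05 and higher in the high-18S arrays was 8 in the report. The share of all genes was 6.06%. With the mean of probe sets the count was 5 (4.86% of all genes), and on leaving out each array 5 to 10 (4.25% to 6.35%). Under the other settings in which it could be computed it was 7 to 10 (6.28% to 10.1%). The 10.1% belongs to the setting without the dimmest 40% of genes, where the count was 9 of 27 members. The 6 members left out as dim were not tested there. Dim probe sets limit what can be said of Hoxa4, Hoxa7, Hoxb7, Hoxb13 and Hoxc13.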
